A study of Rattus norvegicus with 23 samples.

Results

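The genes described are the nuclear-encoded subunits of oxidative phosphorylation, taken by a rule on names that was set with earlier results of these data known. The rule takes every gene whose single symbol begins with Ndufa, Ndufb, Ndufc, Ndufs or Ndufv and a number, is Sdha, Sdhb, Sdhc or Sdhd, or begins with Uqcr, with Cox and a number between 4 and 8, or with Atp5. This rule took 79 of the 14217 genes named on the array, 33 of complex I, 4 of complex II, 7 of complex III, 19 of complex IV and 16 of complex V. Where a gene had several probe sets, the one brightest on average was read. Ndufa4 and its paralog Ndufa4l2 were counted with complex IV, where Ndufa4 is known to belong by function, as was Cox6c-ps1, a pseudogene by its symbol, and the inhibitor gene Atp5if1 was counted with complex V. Kidney RNA came from 23 male rats of SBH/y and SBN/y, known as the hypertension-prone and hypertension-resistant lines of the Sabra rat. There were 6 SBH/y rats and 6 SBN/y rats with 1 kidney, after right uninephrectomy, and 6 SBH/y rats and 5 SBN/y rats with 2 kidneys, after a sham operation. All were 4 months old and 3 months past surgery, which followed weaning, and all ate standard chow. The series was submitted under a title on the pathophysiology of proteinuria.

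Oxidative phosphorylation takes place in the inner mitochondrial membrane. Complex I takes electrons from NADH, complex II takes them from succinate and is at the same time the succinate dehydrogenase of the tricarboxylic acid cycle, complex III passes them to cytochrome c, and complex IV hands them to oxygen. Complexes I, III and IV pump protons, and complex V, the ATP synthase, makes ATP from the gradient. The kidney is known for its dense mitochondria, above all in the proximal tubule and the thick ascending limb, where ATP drives sodium reabsorption.

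The values were log2 signals with 1 value per probe set and array, normalized so that the array medians lay between 4.65 and 4.69, so they carry no trace of a shift in total mRNA. Of the 79 genes, 73 lay above the median of all probe sets, 4.66, and 6 below it. Replicate arrays were close: the median SD of the 79 genes within a group was 0.08 in SBH/y and 0.07 in SBN/y with 1 kidney, and 0.06 in SBH/y and 0.06 in SBN/y with 2 kidneys. The excess of the 3′ over the 5′ control probes of GAPDH, which grows as RNA degrades, moved with the groups. Its log2 mean ± SD was 0.53 ± 0.11 in SBH/y and 0.45 ± 0.04 in SBN/y with 1 kidney (n = 6 each), and 0.46 ± 0.06 in SBH/y (n = 6) and 0.35 ± 0.03 in SBN/y (n = 5) with 2 kidneys. No scan date or batch is known here, and the labels say no more of separate animals than their names do, so the p-values speak only of the spread among these arrays. In whole kidney, fewer cells of a type and less RNA per cell cannot be told apart.

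With 1 kidney, a minority of the subunit genes passed the test between the strains, all of them lower in SBH/y, and among them were all 4 genes of complex II. In the limma fit over all 31042 probe sets, 15 of the 79 genes (19.0%) were lower in SBH/y at a Benjamini-Hochberg adjusted p under 0.05 and 0 were higher, where 7.48% of all genes were lower and 10.2% higher. In 6 of 9 alternative settings and in 3 of 23 fits that left out 1 array, Ndufb8 was called higher in place of the 0. The 15 were all 4 genes of complex II, 6 of 33 of complex I, 2 of 7 of complex III, 2 of 19 of complex IV and 1 of 16 of complex V. Leaving out SBH/y replicate 1 left 10 calls. With the GAPDH measure as a covariate 10 genes were called too, and the calls of Sdhc, Ndufa5, Ndufs1, Uqcrc2, Cox5b and Cox8b were lost. The differences were small, with a median over the 79 genes of -0.06 log2, against 0.01 over all genes, and 63 of the 79 (79.7%) were negative, against 47.7% of all genes. By complex the median difference was -0.07 for complex I, -0.21 for II, -0.12 for III, -0.03 for IV and -0.05 for V. All 6 arrays of SBH/y lay below all 6 of SBN/y for 11 genes and above them for 0, where 4.49% of all genes were below and 5.32% above in this way.

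With 2 kidneys, 7 of the 79 genes differed between the strains, 6 lower in SBH/y (7.59%) and 1 higher (1.27%), where 5.54% of all genes were lower and 5.5% higher, so the share of members called lower lay near that of all genes. Leaving out replicate 3 or replicate 4 of SBN/y left 3 calls, and leaving out replicate 3 of SBH/y left 4. With the GAPDH covariate 7 genes were called too, 4 of them among these 7, and the calls of Ndufs4, Ndufv2 and Uqcrq were lost. The median difference was -0.03 log2, against 0.01 over all genes, and 57 of the 79 genes (72.2%) were negative, against 47.5% of all genes. By complex the median was -0.03 for complex I, -0.11 for II, -0.06 for III, -0.02 for IV and -0.01 for V. The ranges of the strains did not overlap for 10 genes, 8 with SBH/y below and 2 with SBH/y above, where 4.8% of all genes were below and 4.92% above. The 2 strain comparisons share no array. In them, 54 of the 79 genes (68.4%) had a negative difference both times, against 31.5% of all genes, whether or not they passed the test. The 5 that passed the test both times were Ndufa3, Ndufa12, Ndufv2, Uqcrq and Cox8b, all lower in SBH/y. The share of all genes that passed both times was not counted, so this 5 has no background to be set against.

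**Figure D1:**
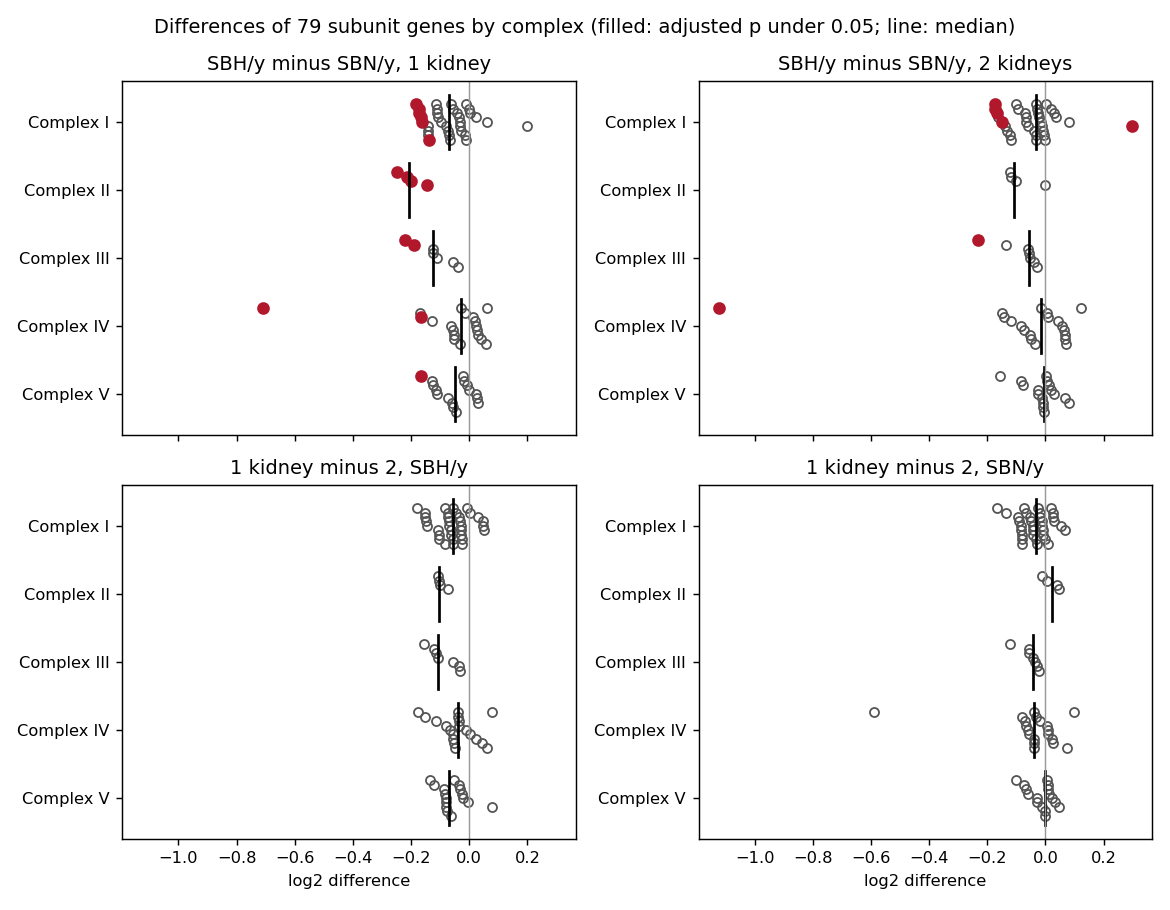
Log2 difference of each of the 79 subunit genes, 1 point per gene, by complex, in the 2 strain comparisons (top) and the 2 comparisons of 1 kidney with 2 (bottom), with points filled where the limma adjusted p was under 0.05 and a line at the median of each complex. With 1 kidney all 4 complex II genes are filled and lie left of 0, with a median of -0.21, while the lower panels hold no filled point.

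Complex I is the largest complex, and its called genes were lower in SBH/y, with 1 exception. Ndufv2 encodes an iron-sulphur subunit of the NADH-oxidising module. With 1 kidney it read 10.20, 10.33 and 10.42 (lowest, median and highest) in SBH/y, against 10.45, 10.50 and 10.55 in SBN/y, a difference of -0.17 ± 0.05 (SE, adjusted p = 0.0107). With 2 kidneys it read 10.28, 10.36 and 10.41 in SBH/y, against 10.51, 10.51, 10.61, 10.51 and 10.48 in SBN/y, a difference of -0.17 ± 0.05 (adjusted p = 0.0283). The strains did not overlap at either kidney number, so every SBH/y array was below every SBN/y array with the same number of kidneys. The call with 2 kidneys was lost without replicate 3 of SBN/y (adjusted p = 0.0991) or replicate 2 or 3 of SBH/y (0.0531 and 0.0604).

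Ndufa3 and Ndufa12, accessory subunits of complex I, were the other 2 genes of this complex called at both kidney numbers. Ndufa3 with 1 kidney read 10.01, 10.06 and 10.22 in SBH/y, against 10.16, 10.27 and 10.34 in SBN/y, a difference of -0.17 ± 0.05 (adjusted p = 0.0127). With 2 kidneys it read 10.00, 10.06 and 10.09 in SBH/y, against 10.19, 10.24, 10.27, 10.23 and 10.23 in SBN/y, a difference of -0.17 ± 0.05 (adjusted p = 0.0253). The strains overlapped with 1 kidney and not with 2, and the second call was lost without replicate 3 or 4 of SBN/y or replicate 1 of SBH/y (adjusted p = 0.0663, 0.0503 and 0.0592). Ndufa12 differed by -0.14 ± 0.05 with 1 kidney (adjusted p = 0.0388) and by -0.15 ± 0.05 with 2 (adjusted p = 0.0455), and its ranges also overlapped with 1 kidney and not with 2. Its calls were the least stable: with 1 kidney the call was lost in 8 of the 23 fits that left out 1 array, with an adjusted p up to 0.105 (each of replicates 1, 3 and 5 of SBH/y and 1, 2, 3, 5 and 6 of SBN/y with 1 kidney). With 2 kidneys it was lost in 13, with an adjusted p up to 0.129 (each SBH/y replicate but 5 and each SBN/y replicate but 5 with 2 kidneys, and replicates 1, 2, 5 and 6 of SBN/y with 1 kidney, which share the variance estimate).

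With 1 kidney, 3 more genes of complex I were lower in SBH/y. Ndufa5, an accessory subunit of the arm that reaches into the matrix, read 7.91, 8.11 and 8.18 in SBH/y, against 8.17, 8.25 and 8.38 in SBN/y (-0.18 ± 0.05, adjusted p = 0.02). Ndufa9, an accessory subunit near the junction of the matrix and membrane arms, read 9.73, 9.86 and 9.90 in SBH/y, against 9.92, 10.01 and 10.08 in SBN/y (-0.17 ± 0.05, adjusted p = 0.0162). Ndufs1, the largest core subunit and a carrier of iron-sulphur clusters, read 9.88, 10.02 and 10.11 in SBH/y, against 10.12, 10.17 and 10.20 in SBN/y (-0.16 ± 0.05, adjusted p = 0.0157); it fell outside the rule for naming genes and was chosen after its values were seen. The strains overlapped for Ndufa5 and did not for Ndufa9 and Ndufs1. Without replicate 1 of SBH/y with 1 kidney all 3 calls were lost (adjusted p = 0.0586, 0.0529 and 0.0533), and that of Ndufa5 also without replicate 2 of SBH/y or replicate 6 of SBN/y (0.0626 and 0.0627). With 2 kidneys these 3 genes differed by -0.14, -0.13 and -0.07 and did not pass the test. The second probe set of Ndufa9, at a mean signal of 3.15, did not pass the test with 1 kidney (-0.07 ± 0.08, adjusted p = 0.68).

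Ndufb8, an accessory subunit of the membrane arm often used as a marker of assembled complex I, ran the other way. With 2 kidneys it read 8.32, 8.39 and 8.70 in SBH/y, against 8.04, 8.30, 8.09, 8.29 and 8.10 in SBN/y, a difference of 0.30 ± 0.08 (adjusted p = 0.00906). All SBH/y arrays lay above all SBN/y arrays. With 1 kidney it read 8.12, 8.31 and 8.41 in SBH/y, against 8.03, 8.06 and 8.16 in SBN/y, and the difference of 0.20 ± 0.07 did not pass the test (adjusted p = 0.0656). That call turned with the setting: Ndufb8 passed in 6 of 9 alternative settings and without replicate 3 of SBH/y with 2 kidneys or replicate 1 or 2 of SBH/y with 1 kidney (adjusted p = 0.0413, 0.0369 and 0.0451), and the adjusted p ran between 0.0257 and 0.153. Of the 10 measured genes next to Ndufb8 on chromosome 1, 5 on either side in the RefSeq order, 3 differed between the strains with 2 kidneys (Bloc1s2, Scd and Twnk), 2 of them lower in SBH/y, where 11% of all genes differed. Around the 17 called subunit genes the number with 2 kidneys ran between 0 and 3 of 10, and it was 3 for Ndufs4 and Sdhc too. With 1 kidney 5 of the 10 neighbours of Ndufb8 differed, 4 of them lower in SBH/y, where 7.48% of all genes were lower and 10.2% higher. Around the 17 genes the number with 1 kidney ran between 0 and 5, and it was 5 for Ndufs4 too. Ndufs4, an accessory subunit of the NADH-oxidising end, was called with 2 kidneys only. It read 7.43, 7.55 and 7.59 in SBH/y, against 7.67, 7.81, 7.75, 7.71 and 7.59 in SBN/y (-0.18 ± 0.05, adjusted p = 0.0327), and differed by -0.03 ± 0.05 with 1 kidney (adjusted p = 0.815). Its call was lost without replicate 2, 3 or 4 of SBN/y or replicate 3, 4 or 5 of SBH/y, with an adjusted p up to 0.107. That the 2 strain differences of Ndufs4 differ from each other was not shown, at 0.15 ± 0.07 with an adjusted p of 0.634 for the interaction.

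The remaining 25 genes of complex I passed the test in no comparison. The mean signals of the whole complex ran between 7.60 for Ndufs4 and 11.18 for Ndufb9, and signals of different probe sets do not rank transcripts by amount. Core subunits that did not pass the test with 1 kidney included Ndufv1 (-0.14, adjusted p = 0.0515) and Ndufs3 (-0.14, adjusted p = 0.0703), named here after their values were seen.

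Complex II was the 1 complex of which every gene passed the test. Sdha, the flavoprotein that oxidises succinate, read with 1 kidney 10.30, 10.38 and 10.56 in SBH/y, against 10.58, 10.67 and 10.69 in SBN/y. The difference of -0.25 ± 0.06 (adjusted p = 0.00271) corresponds to a 0.842-fold signal. Sdhb, the iron-sulphur subunit, read 10.70, 10.78 and 10.89 in SBH/y, against 10.95, 10.99 and 11.02 in SBN/y (-0.21 ± 0.04, adjusted p = 0.00103, 0.863-fold). For both genes all 6 SBH/y arrays lay below all 6 SBN/y arrays.

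The membrane anchors Sdhc and Sdhd hold the complex in the membrane and bind ubiquinone. With 1 kidney Sdhd read 10.50, 10.61 and 10.66 in SBH/y, against 10.77, 10.80 and 10.87 in SBN/y (-0.20 ± 0.05, adjusted p = 0.00405, 0.871-fold), with no overlap. Sdhc read 10.83, 10.92 and 11.06 in SBH/y, against 11.03, 11.05 and 11.16 in SBN/y (-0.15 ± 0.05, adjusted p = 0.0341, 0.904-fold). The ranges of Sdhc overlapped by its highest SBH/y array. The calls of Sdha, Sdhb and Sdhd were kept in all 23 fits that left out 1 array and in every other setting tried. That of Sdhc was lost without replicate 2 or 6 of SBN/y or replicate 1, 2 or 5 of SBH/y with 1 kidney (adjusted p between 0.0538 and 0.0941), and with the GAPDH measure as a covariate, only the groups compared, or 2 arrays left out, with adjusted p-values up to 0.102.

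With 2 kidneys none of the 4 genes passed the test. Sdha read 10.31, 10.54 and 10.62 in SBH/y, against 10.62, 10.52, 10.57, 10.60 and 10.72 in SBN/y, a difference of -0.10 ± 0.06 (adjusted p = 0.396). Sdhb read 10.79, 10.89 and 10.93 in SBH/y, against 11.04, 10.94, 11.03, 10.98 and 11.01 in SBN/y, a difference of -0.12 ± 0.05 (adjusted p = 0.134), and Sdhd differed by -0.12 ± 0.05 (adjusted p = 0.153). The ranges of Sdhb nonetheless did not overlap. Sdhc was level, at 10.97, 11.02 and 11.07 in SBH/y, against 11.04, 10.97, 11.02, 11.00 and 11.07 in SBN/y, a difference of 0.00 ± 0.05 (95% interval -0.10 to 0.10). The difference between the 2 strain differences, which is the interaction, was -0.15 ± 0.08 for Sdha, -0.09 ± 0.06 for Sdhb, -0.14 ± 0.07 for Sdhc and -0.08 ± 0.07 for Sdhd. None passed the test, with adjusted p-values between 0.591 and 0.864, so it was not shown that the strain difference of complex II depends on kidney number.

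**Figure D2:**
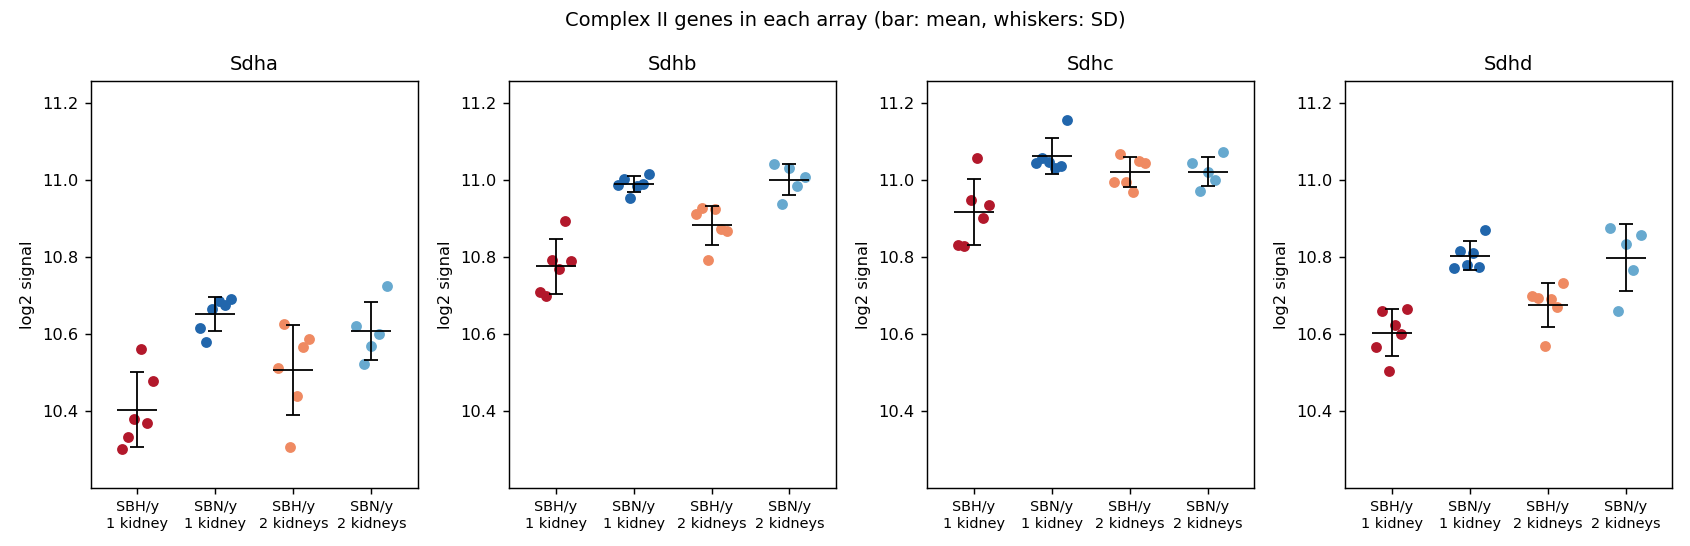
Log2 signal of the 4 complex II genes in each array (points), with the mean (bar) and SD (whiskers) of each group of strain and kidney number. With 1 kidney the SBH/y arrays of Sdha, Sdhb and Sdhd all lie below the SBN/y arrays, and for Sdhc the highest SBH/y array, 11.06, lies within the SBN/y range.

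Since the 4 genes of complex II were lower together, their promoters are shown. Windows of 300 bases around the annotated start (250 before, 50 after) were found for 71 of the 79 genes in the RefSeq promoters of GRCr8, and 4 motifs of factors known to drive nuclear genes of mitochondria were searched on both strands: GCGC and TGCGC with any 1 base between them (NRF1), CCGGAAG (GABPA, also called NRF2), AAGATGGC (YY1) and AAGGTCA (estrogen-related receptor alpha). None of these motifs contains another. The 150 bases before each start, read 5′ to 3′ on the gene's strand, follow with motif matches in capitals.
Sdha: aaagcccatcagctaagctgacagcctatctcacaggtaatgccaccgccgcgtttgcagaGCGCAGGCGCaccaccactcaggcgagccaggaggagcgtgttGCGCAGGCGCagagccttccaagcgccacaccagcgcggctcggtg
Sdhb: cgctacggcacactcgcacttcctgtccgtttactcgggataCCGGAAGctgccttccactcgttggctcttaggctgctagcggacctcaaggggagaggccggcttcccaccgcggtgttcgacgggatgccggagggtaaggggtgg
Sdhc: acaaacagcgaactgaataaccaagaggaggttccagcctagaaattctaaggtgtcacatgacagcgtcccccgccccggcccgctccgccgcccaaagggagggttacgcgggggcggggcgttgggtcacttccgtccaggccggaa
Sdhd: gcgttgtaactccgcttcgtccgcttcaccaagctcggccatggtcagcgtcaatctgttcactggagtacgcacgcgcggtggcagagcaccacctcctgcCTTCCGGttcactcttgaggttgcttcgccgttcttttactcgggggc

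The Sdha window is chr1:30764403-30764552 on the plus strand and held 2 NRF1 matches, both on the opposite strand. The Sdhb window is chr5:158547784-158547933 on the plus strand and held 1 GABPA match. The Sdhd window is chr8:59850642-59850791 on the minus strand and held 1 GABPA match on the opposite strand. The Sdhc window, chr13:86098026-86098175 on the minus strand, held none of the 4 motifs in these 150 bases. Over the full 300 bases Sdhc held 1 YY1 match, Sdha 3 NRF1 matches and Sdhb 1 GABPA match. Sdhd held 2 GABPA matches and 1 of the estrogen-related receptor motif there. In the full windows, NRF1 was matched in 18.3% of the 71 member promoters and 4.71% of all 27457 promoters, GABPA in 28.2% and 9.22%, YY1 in 22.5% and 3.44%, and the estrogen-related receptor motif in 15.5% and 4.37%. Among the 15 genes lower in SBH/y with 1 kidney the shares were 26.7%, 40%, 20% and 13.3%. A match is a description of the letters and no evidence of binding in these kidneys.

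Of complex III, Uqcrq and Uqcrc2 were lower in SBH/y. Uqcrq, a small subunit near the ubiquinone site, was called at both kidney numbers. With 1 kidney it read 10.55, 10.65 and 10.73 in SBH/y, against 10.72, 10.89 and 10.94 in SBN/y (-0.22 ± 0.06, adjusted p = 0.0145), and with 2 kidneys 10.64, 10.70 and 10.94 in SBH/y, against 10.91, 11.11, 10.93, 11.12 and 10.84 in SBN/y (-0.23 ± 0.07, adjusted p = 0.0196). The ranges overlapped both times, and the call with 2 kidneys was lost without replicate 2 or 4 of SBN/y (adjusted p = 0.0708 and 0.0794). Uqcrc2, a core protein of the matrix side, read with 1 kidney 10.34, 10.50 and 10.52 in SBH/y, against 10.57, 10.65 and 10.72 in SBN/y (-0.19 ± 0.05, adjusted p = 0.00894), without overlap. With 2 kidneys it differed by -0.06 ± 0.05 (adjusted p = 0.639). With the GAPDH measure as a covariate the call of Uqcrc2 with 1 kidney was lost (adjusted p = 0.0637). The other 5 genes of the complex passed the test in no comparison, and the differences of all 7 were negative at both kidney numbers, down to -0.03 and -0.04 for Uqcr10. The signals of the complex ran between 10.47 for Uqcr11 and 11.33 for Uqcr10. Cyc1, the cytochrome c1 gene, which the name rule leaves out and which was named after its values were seen, differed by -0.13 with 1 kidney and by -0.12 with 2 and did not pass the test.

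Complex IV held the largest strain difference and few others. Cox5b, which encodes a subunit of the matrix side, read with 1 kidney 10.83, 11.00 and 11.08 in SBH/y, against 11.08, 11.12 and 11.21 in SBN/y (-0.17 ± 0.05, adjusted p = 0.0296), the ranges just apart. Its call was lost with the GAPDH measure as a covariate (adjusted p = 0.0909) and without replicate 2, 5 or 6 of SBN/y or replicate 1 or 2 of SBH/y (between 0.054 and 0.0856). The subunit genes that the kidney expresses strongly showed little: with 1 kidney Cox4i1 differed by 0.06, Cox6a1 by -0.05, Cox6b1 by -0.06, Cox7b by -0.03, Cox8a by 0.02 and Cox7a2l, which encodes an assembly factor of supercomplexes, by 0.06, and none passed the test in any comparison. Ndufa4, also a subunit of complex IV, differed by -0.13 with 1 kidney (adjusted p = 0.0566). Its paralog Ndufa4l2, at a mean signal of 4.69, differed by -0.17 (adjusted p = 0.121).

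Isoforms that other tissues use in place of these subunits lay below the median of all probe sets. The mean signal was 3.68 for Cox4i2, known for its hypoxia-dependent use in lung, 3.84 for Cox6a2 and 3.78 for Cox7a1, both muscle forms, and 3.19 for Cox6b2 and 2.65 for Cox7b2, both known from testis. None of these 5 passed the test in any comparison.

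Cox8b was the exception. It encodes the form of subunit 8 that rodents use in heart, skeletal muscle and brown fat. With 2 kidneys it read 4.57, 4.66 and 5.07 in SBH/y, against 4.83, 6.45, 6.32, 5.51 and 6.06 in SBN/y, a difference of -1.12 ± 0.22 (adjusted p = 0.000918), a 0.46-fold signal. With 1 kidney it read 4.14, 4.49 and 5.04 in SBH/y, against 4.75, 5.21 and 5.89 in SBN/y, a difference of -0.71 ± 0.21 (adjusted p = 0.0229), 0.612-fold. The SBH/y medians lay near or below the median of all probe sets, 4.66, so signal over background limits these fold values. In SBN/y with 2 kidneys 4 of the 5 arrays lay above every SBH/y array, and 1, replicate 1, lay within the SBH/y range. Its SD of 0.67 in SBN/y with 2 kidneys was the largest of the 79 genes. The call with 2 kidneys was kept in all settings, while that with 1 kidney was lost without replicate 2 or 5 of SBN/y or replicate 2 or 6 of SBH/y (adjusted p between 0.0546 and 0.0762), with the GAPDH covariate (0.0746) and with a trended variance (0.0563).

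Some genes of fat, though not most of those listed, also differed between the strains. Ucp1, the uncoupling protein of brown fat, read with 2 kidneys 3.65, 4.30 and 4.66 in SBH/y, against 4.45, 6.66, 6.89, 5.74 and 6.54 in SBN/y, a difference of -1.77 ± 0.36 (adjusted p = 0.00118), and it differed by -1.29 ± 0.35 with 1 kidney (adjusted p = 0.0098). Fabp4, a fatty acid carrier of fat cells, differed by -0.83 ± 0.23 with 2 kidneys (adjusted p = 0.0178) and by -0.69 ± 0.22 with 1 (adjusted p = 0.0316). Replicate 1 of SBN/y with 2 kidneys was the lowest of its group in Cox8b, Ucp1 and Fabp4, at 4.83, 4.45 and 6.18. Of the brown fat list, 1 of 6 measured genes passed the test, lower in SBH/y, in each strain comparison, and of the white fat list 2 of 7 with 2 kidneys (Fabp4 and Adipoq) and 1 of 7 with 1 (Fabp4). Of all genes, 5.54% were lower with 2 kidneys and 7.48% with 1. The median difference of the white fat list was -0.06 with 2 kidneys and 0.00 with 1, and Cidec, a fat droplet protein, ran the other way without passing the test (0.16 with 2 kidneys and 0.10 with 1). Elovl3, Ckmt2 and Dio2, also known from brown fat, had mean signals of 2.23, 2.91 and 2.78, below the median of all probe sets.

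The summed signal of the brown fat list, on a log2 scale, ran between 7.21 and 7.55 in SBH/y and between 7.41 and 8.37 in SBN/y with 2 kidneys, and between 7.19 and 7.51 in SBH/y and between 7.26 and 8.16 in SBN/y with 1 kidney. For the white fat list it ran between 8.59 and 8.88 in SBH/y and between 8.66 and 9.28 in SBN/y with 2 kidneys. Of 13 muscle genes measured, 0 passed the test in either strain comparison. Of these Myh1 had a mean signal of 11.14 and the other 12 between 2.41 and 5.03, so a summed signal of the list would be that of Myh1. The part of fat tissue in the Cox8b difference was not tested.

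**Figure D3:**
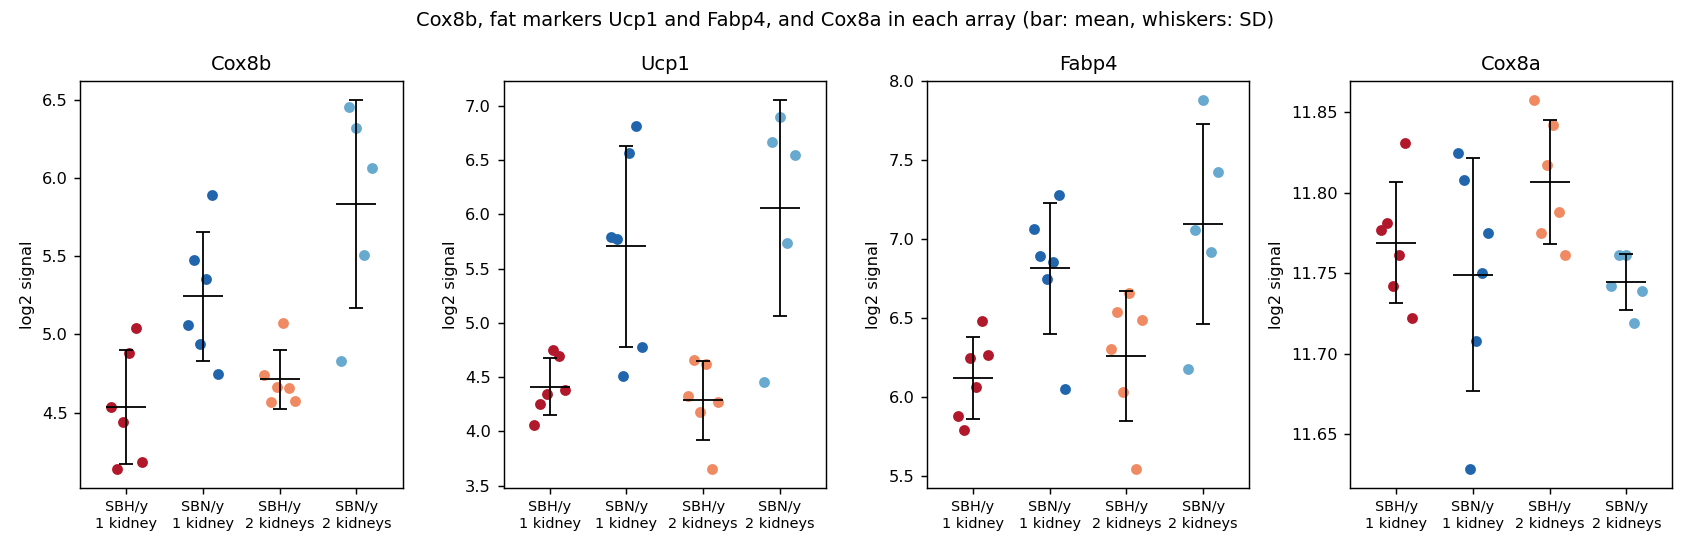
Log2 signal of Cox8b, of the fat genes Ucp1 and Fabp4, and of Cox8a, the form of subunit 8 found in most tissues, in each array (points) with the mean (bar) and SD (whiskers) of each group; each panel has its own scale. The SBN/y arrays of Cox8b, Ucp1 and Fabp4 spread widely and reach above those of SBH/y at both kidney numbers, while Cox8a stays between 11.63 and 11.86 on all arrays.

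Complex V gave 1 call. Atp5f1c, the gamma subunit that turns within the catalytic head, read with 1 kidney 11.14, 11.24 and 11.32 in SBH/y, against 11.34, 11.41 and 11.46 in SBN/y (-0.17 ± 0.05, adjusted p = 0.0117), without overlap, and this call was kept in all settings tried. It differed with 2 kidneys by -0.09 ± 0.05 (adjusted p = 0.356). The catalytic subunit Atp5f1b, with the highest mean signal of the complex at 12.15, differed by -0.02 with 1 kidney and by 0.02 with 2. Atp5mc3, which encodes the c subunit of the membrane ring, differed by -0.07 with 1 kidney (adjusted p = 0.319). Atp5if1, the inhibitor that stops the enzyme from hydrolysing ATP, had the lowest mean signal of the complex at 9.19 and differed by -0.13 with 1 kidney (adjusted p = 0.155) and by -0.16 with 2 (adjusted p = 0.108).

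**Figure D4:**
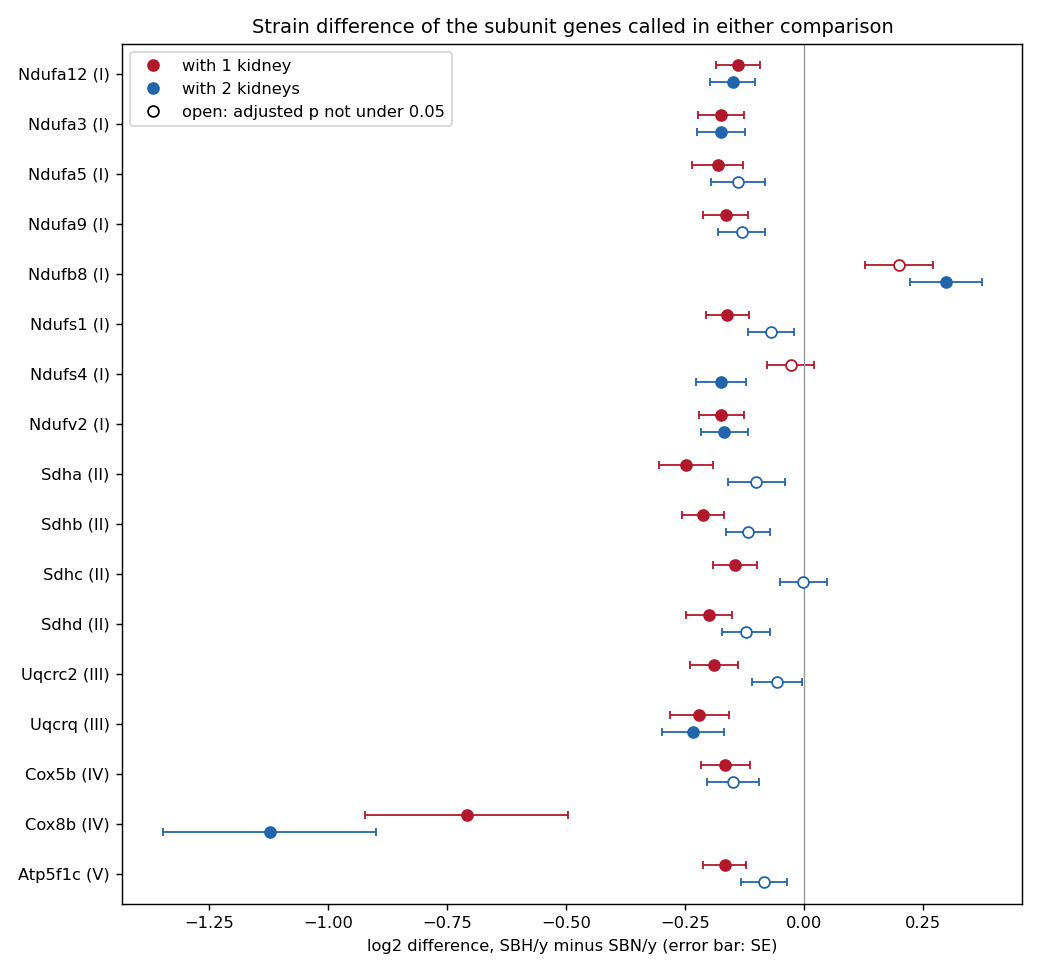
Log2 difference between the strains, SBH/y minus SBN/y, of the 17 subunit genes called in either strain comparison, with 1 kidney in red and with 2 in blue, and the SE of the fit as the error bar (open points did not pass the test). All but Ndufb8, at 0.20 with 1 kidney and 0.30 with 2, lie at or left of 0 in both comparisons.

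In the fit reported, with each gene read from its brightest probe set, none of the 79 genes differed between kidney numbers at an adjusted p under 0.05 in either strain. In SBH/y, where 2.4% of all genes fell and 4.76% rose, 0 subunit genes passed the limma test. At an unadjusted p under 0.05, 13 were lower with 1 kidney and 0 higher, where 7.46% of all genes were lower and 11.9% higher. The median difference was -0.06 and 68 of the 79 genes (86.1%) were negative, against 48.5% of all genes. Markers of other cells moved in the same comparison, with 5 of 6 intercalated cell markers lower and 7 of 10 myeloid markers higher with 1 kidney, and their part was not tested. By complex the median was -0.06 for complex I, -0.10 for II, -0.11 for III, -0.04 for IV and -0.07 for V. Uqcrc2 had the smallest adjusted p. It read 10.34, 10.50 and 10.52 with 1 kidney, against 10.50, 10.62 and 10.67 with 2 (-0.16 ± 0.05, adjusted p = 0.0736), and the groups overlapped. Leaving out replicate 1 of SBH/y with 2 kidneys gave 1 call in place of 0. A repeated quantile normalization gave 3 calls and a trended and robust variance 3, all lower with 1 kidney. The filter on dim probe sets, the mean of the probe sets and the next-brightest probe set gave 1 each, also lower. The second probe set of Uqcrc2 passed the limma test (-0.33, adjusted p = 0.0415). This comparison shares its arrays of SBH/y with 1 kidney with the strain comparison with 1 kidney.

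In SBN/y, where 0.253% of all genes passed the test, 0 subunit genes did. At an unadjusted p under 0.05, 3 were lower with 1 kidney and 0 higher, where 3.8% of all genes were lower and 4.56% higher. The median difference was -0.03 and 55 of the 79 genes (69.6%) were negative, against 47.9% of all genes. The complex II genes differed by 0.05, -0.01, 0.04 and 0.00 for Sdha, Sdhb, Sdhc and Sdhd. The response to uninephrectomy was not shown to differ between the strains for any of the 79 genes: 0 passed the limma test of the interaction, where 0.408% of all genes did. The smallest adjusted p from limma was 0.591. The median interaction was -0.03, against 0.005 over all genes, and 58 of the 79 (73.4%) were negative, against 48.4% of all genes. Only Sdhc had an unadjusted p under 0.05, on the negative side, where 3.62% of all genes lay on the negative and 5.92% on the positive side.

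Each gene's deviation from its own mean over the 23 arrays sets out the same values by array and is no second test. The median deviation of the complex II genes averaged -0.12 ± 0.06 in SBH/y and 0.08 ± 0.04 in SBN/y with 1 kidney (SD, n = 6 each). With 2 kidneys the value was -0.02 ± 0.06 in SBH/y (SD, n = 6) and 0.07 ± 0.06 in SBN/y (SD, n = 5). That of complex I averaged -0.06 ± 0.05 in SBH/y and 0.02 ± 0.03 in SBN/y with 1 kidney (SD, n = 6 each). With 2 kidneys that value was -0.01 ± 0.03 in SBH/y (SD, n = 6) and 0.05 ± 0.03 in SBN/y (SD, n = 5). For complex IV the group means lay between -0.04 and 0.01.

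**Figure D5:**
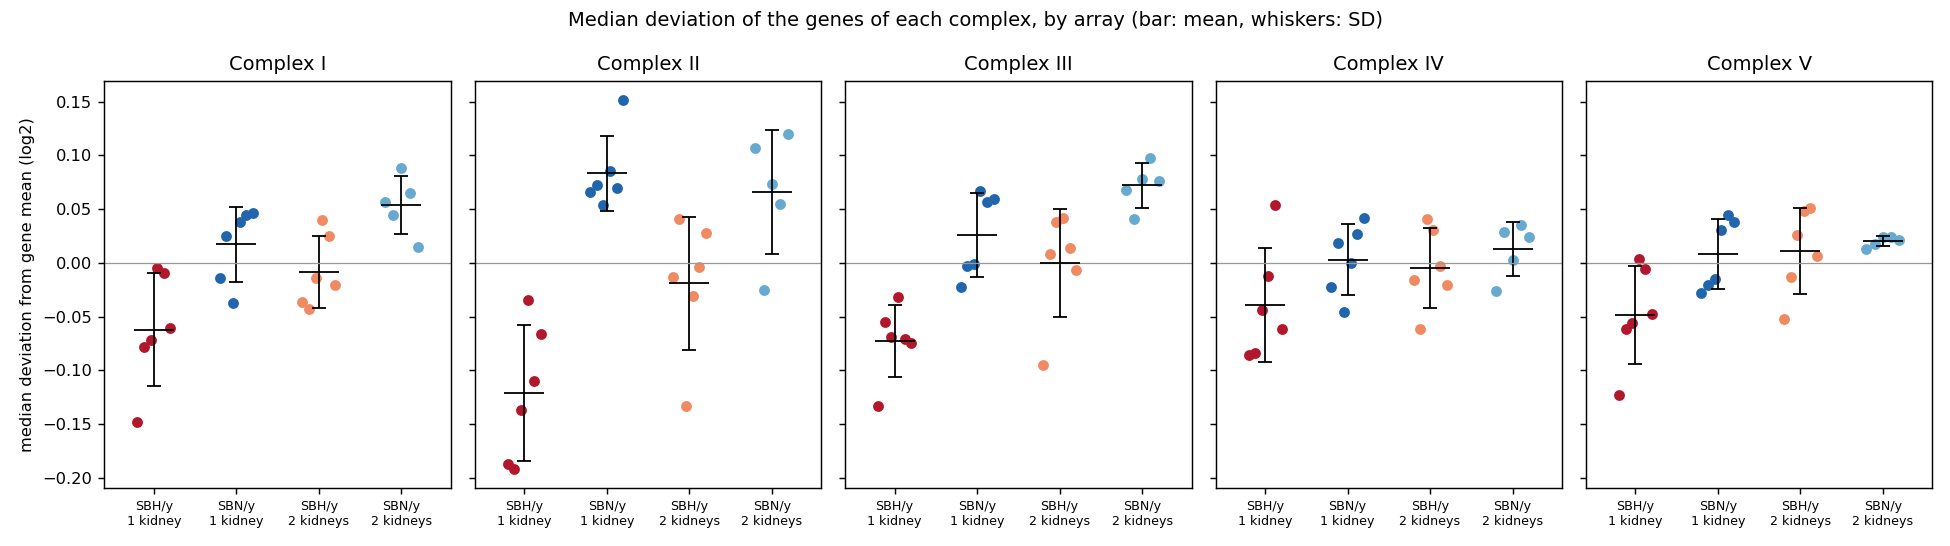
Median deviation of the genes of each complex from their own means over 23 arrays, on the log2 scale, 1 point per array, with the mean (bar) and SD (whiskers) of each group. In complex II the SBH/y arrays with 1 kidney, between -0.19 and -0.03, lie below all SBN/y arrays with 1 kidney, between 0.05 and 0.15.

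For 8 members a second probe set with the same single symbol was on the array, and it differed from the first for some. The second probe set of Sdhd, at a mean signal of 10.02, was also lower in SBH/y with 1 kidney (-0.28 ± 0.06, adjusted p = 0.000618). That of Uqcrc2, at 8.97, was lower in SBH/y than in SBN/y with 1 kidney (-0.40 ± 0.10, adjusted p = 0.00429), and in SBH/y it was lower with 1 kidney than with 2 (-0.33, adjusted p = 0.0415). The 2 probe sets of Ndufv3, a small subunit of the NADH-oxidising module, disagreed: the brighter one, at 9.88, differed between the strains by 0.03 with 2 kidneys and by 0.00 with 1, and the other, at 6.10, by -0.56 ± 0.07 (adjusted p = 2.1e-06) and by -0.40 ± 0.07 (adjusted p = 0.000102). These second probe sets were singled out after their values were seen. What part of each transcript they match was not examined here.

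Genes around the subunits were read from lists. One list held 16 measured genes outside the name rule, the subunit genes Cyc1 and Ndufab1 and genes that feed or link the chain. Of these 16, 4 were lower in SBH/y with 1 kidney and 3 with 2, and 0 higher. Among all genes 7.48% were lower with 1 kidney and 5.54% with 2. Gpd2, the mitochondrial glycerol phosphate dehydrogenase, differed by -0.36 with 1 kidney (adjusted p = 0.00125) and by -0.53 with 2 (adjusted p = 3.3e-05). Coq2, Coq3 and Coq6, enzymes of ubiquinone synthesis, differed by -0.35, -0.28 and -0.28 with 1 kidney (adjusted p = 0.00122, 0.00428 and 0.000562). Of 14 genes of the tricarboxylic acid cycle and pyruvate dehydrogenase, 3 were lower with 1 kidney and 2 with 2: Pdha1 by -0.39 and -0.23, Mdh2 by -0.20 and -0.17, and Pdhb by -0.26 with 1 kidney. Of 47 assembly factors, 5 were lower and 3 higher with 1 kidney, near the 7.48% and 10.2% of all genes, among them Cox15 (-0.25), which makes the heme A of complex IV, and Uqcc3 (0.29), an assembly factor of complex III. With 2 kidneys 2 were higher, Ndufaf5 and Uqcc3, and 0 lower.

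Of 20 regulators of mitochondrial genes, 4 were lower and 2 higher in SBH/y with 1 kidney, where 7.48% of all genes were lower and 10.2% higher. Ppargc1a, the coactivator PGC-1 alpha, read 7.69, 7.91 and 7.99 in SBH/y with 1 kidney, against 8.06, 8.15 and 8.34 in SBN/y with 1 kidney and 8.09, 8.21 and 8.36 in SBH/y with 2 kidneys. All 6 arrays of SBH/y with 1 kidney lay below all arrays of both other groups, by -0.29 ± 0.06 between the strains (adjusted p = 0.00109) and by -0.33 ± 0.06 between kidney numbers (adjusted p = 0.000804). In SBN/y it differed by 0.09 ± 0.06 between kidney numbers (adjusted p = 0.825). For this gene the response to uninephrectomy differed between the strains, by -0.42 ± 0.09 (adjusted p = 0.0259). Twnk, the helicase of mitochondrial DNA and one of the neighbours of Ndufb8 above, was lower in SBH/y by -0.78 with 1 kidney and by -0.68 with 2 (adjusted p = 3.46e-08 and 1.04e-06). Yy1 was higher in SBH/y by 0.23 with 1 kidney and by 0.22 with 2. Esrrg, a nuclear receptor of oxidative tissues, was lower in SBH/y with 2 kidneys (-0.28), and Esrrb was lower with 1 kidney than with 2 in SBH/y (-0.25). Between the strains with 2 kidneys, 2 of the 20 were lower in SBH/y and 1 higher, where 5.54% of all genes were lower and 5.5% higher. In SBH/y with 1 kidney against 2, 2 of the 20 were lower and 1 higher, where 2.4% of all genes were lower and 4.76% higher. None of these values shows an effect of a regulator on the subunit genes.

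Some markers of nephron segments and of blood cells differed between the same groups. Of all genes, 10.2% were higher and 7.48% lower in SBH/y with 1 kidney, and 5.5% higher and 5.54% lower with 2. With 1 kidney, of 12 proximal tubule markers 2 were higher and 0 lower in SBH/y, of 9 markers of the thick ascending limb and distal convoluted tubule 4 were lower, of 8 principal cell markers 2 were higher and 1 lower, of 6 intercalated cell markers 4 were lower, of 10 myeloid markers 7 were higher, and of 4 red blood cell markers 2 were lower. With 2 kidneys the counts were 3 higher for the proximal tubule, 2 lower for the thick limb and distal tubule, 2 higher and 1 lower for principal cells, 1 higher for intercalated cells, 5 higher for myeloid cells and 2 lower for red blood cells. The summed log2 signal with 1 kidney ran between 14.73 and 14.85 in SBH/y and 14.72 and 14.80 in SBN/y for the proximal tubule list, between 13.30 and 13.50 in SBH/y and 13.52 and 13.61 in SBN/y for the thick limb and distal tubule list, between 10.09 and 10.29 in SBH/y and 10.33 and 10.49 in SBN/y for the intercalated cell list, and between 11.95 and 12.27 in SBH/y and 11.08 and 11.60 in SBN/y for the myeloid list. For the red blood cell list it ran between 10.80 and 11.43 in SBH/y and 11.47 and 11.94 in SBN/y, and for the principal cell list between 11.37 and 11.87 in SBH/y and 11.36 and 11.69 in SBN/y. The sums of the thick limb and distal tubule, intercalated cells, myeloid cells and red blood cells thus parted the strains with 1 kidney without overlap. Those of the proximal tubule and principal cells did not. The brightest genes of a list weigh most in its sum. In SBH/y with 1 kidney Hbb alone read between 10.7 and 11.4, and Lyz2, of the myeloid list, between 11.5 and 11.8. With 1 kidney the strains overlapped for Slc25a37 and Ahsp of the red blood cell list, and for Umod, the brightest of the thick limb list. In SBH/y with 1 kidney against 2, beside the intercalated and myeloid markers given above, 2 of 8 principal cell markers and 1 of 9 of the thick limb and distal tubule were lower. There 0 of 12 proximal tubule and 0 of 4 red blood cell markers passed the test. Of all genes, 2.4% were lower and 4.76% higher in that comparison. The part of these cells in the differences of the subunit genes was not tested.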

How the data were processed

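Per the submitters' processing notes, the authors made the deposited log2 values from the scanned arrays with GCOS and RMA, whose versions are not given. RMA is known to correct background, to give all arrays 1 distribution and to summarise each probe set. Of 31099 probe sets, 57 controls were left out. GEO's platform annotation named 20826 of the other 31042 by 1 symbol, 436 by several and 9780 by none, and 20758 were matched to RefSeq. Groups came from the source names. Differences, standard errors and p-values came from 1 limma fit of 4 group means (limma 3.58.1, R 4.3.3), two-sided, with Benjamini-Hochberg adjustment over the 31042 probe sets of a contrast and a threshold of 0.05. The script was tested on simulated data.

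The members and gene lists were chosen with earlier results of these data known. In each contrast, the 12 called members with the largest differences were named, with isoforms, Atp5if1, complex II and the brightest and dimmest gene of each complex, and up to 4 called genes of each list. For 7 probe sets a member symbol stood beside a second symbol, so Atp5mc1, Atp5mc2, Cox7a2, Uqcrb, Ndufs5 and Ndufa10 have no value here, and Cox5a was read from a dimmer probe set. As alternatives, quantile normalization was repeated, probe sets were kept only if above the overall median in at least 5 arrays, the variance was fitted as trended and robust, only the groups compared were fitted, genes were read from the mean or the next-brightest of their probe sets, replicate number or the GAPDH measure entered the model, and arrays were left out singly. A fit without the 2 arrays at the ends of the second principal component was chosen after seeing the data. Arrays give no counts, so their number limits the precision.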

Additional observations from a re-analysis of the deposited data

Results flagged for a closer look

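In 8 of 88 groups of values (the 17 called genes and the median deviation of each complex, in each of 4 groups of arrays), 1 array stood apart from the rest by Dixon's test at the 95% level. Chance gives this in about 1 of 20 groups. With 2 kidneys, Cox8b read 5.072 in replicate 4 of SBH/y, where the nearest array read 4.74, and Uqcrc2 read 10.496 in replicate 1 of SBH/y, where the nearest read 10.61. Replicate 1 also lay apart in the median deviation of complex III, at -0.094594 against a nearest value of -0.0068. In SBN/y with 2 kidneys, Ndufv2 read 10.609 in replicate 3, above a nearest 10.51, and Uqcrc2 read 10.756 in replicate 5, above a nearest 10.66. In SBN/y with 1 kidney, Ndufa12 read 10.026 in replicate 4, under a nearest 10.11. Replicate 6 of that group read 11.157 for Sdhc, above a nearest 11.06, and had a median deviation of complex II of 0.15242, above a nearest 0.0856. Without this replicate the call of Sdhc with 1 kidney had an adjusted p of 0.0941 (-0.13 log2).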

How the results depend on the processing

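No called gene changed direction in any setting, and the median difference of the 79 genes kept its negative sign in all settings of each comparison. The number of genes called for strain with 2 kidneys, 7, became 11 with the filter on dim probe sets and with the mean of the probe sets of a gene, 13 with a trended and robust variance and 3 with only the groups compared; it lay between 3 (without replicate 3 or 4 of SBN/y with 2 kidneys) and 8 when 1 array was left out. For strain with 1 kidney the number, 15, became 27 with a trended and robust variance and 9 with only the groups compared, and lay between 10 (without replicate 1 of SBH/y with 1 kidney) and 17 when 1 array was left out. With the GAPDH measure as a covariate 10 were called with 1 kidney, 9 of them among the 15. For uninephrectomy in SBH/y, 0 in the fit reported, the number was 3 with a repeated quantile normalization, 3 with a trended and robust variance, and 1 with the filter on dim probe sets, with the mean of the probe sets or with the next-brightest probe set, all lower with 1 kidney; it lay between 0 and 1 when 1 array was left out. For uninephrectomy in SBN/y and the interaction it was 0 in every setting run, and only the groups compared could not be tried for the interaction. The dim filter tests fewer probe sets and only the groups compared uses fewer arrays; for the other settings the cause was not tested. Same-numbered arrays correlated between -0.19 and 0.32 in their deviations, so the numbers do not pair the samples (2 of 10, 3 of 12, 6 of 10 and 2 of 12 arrays correlated best with their own number in the strain comparisons with 2 and 1 kidneys and for uninephrectomy in SBN/y and SBH/y), and with the replicate number as a block 6, 14, 0 and 0 genes were called for strain with 2 kidneys, strain with 1 kidney and uninephrectomy in SBN/y and SBH/y. The block ended the calls of Ndufa12 with 2 kidneys (adjusted p = 0.0795) and of Ndufa12 and Sdhc with 1 kidney (0.0696 and 0.0544), and added Ndufb8 with 1 kidney (0.041). Of the calls, 2 of 7 with 2 kidneys (Cox8b and Ndufb8) and 6 of 15 with 1 kidney (Sdha, Sdhb, Sdhd, Uqcrq, Ndufv2 and Atp5f1c) held in all settings run. Signal over background limits the 6 genes under the overall median, and also Cox8b in SBH/y, where its median lay near or below the overall one.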
